A study of Mus musculus with 18 samples.

Results

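The response of 10 transcriptional targets of p53 to gamma irradiation was followed in mouse bone marrow. The genes are Cdkn1a, Mdm2, Ccng1, Btg2, Gadd45a, Psrc1, Trp53inp1, Sesn1, Sesn2 and Plk2, chosen by name as the targets linked to cell-cycle arrest, to feedback on p53 itself and to stress buffering. All 10 have a probe among the 17178 genes on the array, and all 10 were among the 11884 genes bright enough to be tested. Every probe of every one of them was well above background on all 18 arrays.

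The marrow came from female C3H mice, a common inbred strain with no engineered allele named in the labels. Irradiated mice received 2 Gy of gamma rays and were sampled 6 h or 24 h later, and control mice were not irradiated. There were 6 groups of 3 arrays. RNA was measured on Agilent 1-colour arrays. The groups were 8-week-old mice at 6 h, at 24 h and unirradiated, then 1-week-old mice at 6 h, at 24 h and unirradiated, and the labels give 3 mice for each time. Marrow holds many cell types, so that fewer cells of a type and less RNA per cell cannot be told apart in any of the results.

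p53 is a transcription factor that is stabilised when DNA is broken. It then switches on genes that stop the cell cycle, genes that kill the cell, and genes that restrain p53 itself. Marrow is among the most radiosensitive tissues, because dividing progenitors and B-cell precursors die readily after irradiation. Of the genes described here, Cdkn1a, Btg2, Gadd45a, Plk2 and Psrc1 act on cell division, Mdm2 and Ccng1 restrain p53, Trp53inp1 is a p53 cofactor, and the sestrins Sesn1 and Sesn2 damp growth signalling and oxidative stress.

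p53 binds DNA as a tetramer over a pair of decamers, and the bases before the start of each gene were searched for the p53 consensus decamer of 10 bases. The consensus reads the same on both strands, so 1 search covers both. RefSeq promoters of build GRCm38.p6 were given for 9 of the genes (12 starts), and 250 bases before each start were read. The decamer lay before 5 of the 12 starts, in 5 genes, against 2341 of all 32851 promoters (7.13%). The upstream start of Cdkn1a had 2 decamers with 12 bases between them, at 73 and 51 bases before the start. A pair of decamers with 0 to 13 bases between them lay in 21 of all promoters (0.0639%). The second Cdkn1a decamer was followed directly by 10 bases with 1 mismatch to the consensus, and the single Ccng1 decamer was preceded directly by 10 such bases with 1 mismatch, a layout found in 25 of all promoters (0.0761%). Mdm2 and Gadd45a had 1 decamer each, as did the downstream start of Sesn1. The 10 bases before and after had 6 and 5 mismatches for Mdm2, 7 and 6 for Gadd45a, and 7 and 3 for Sesn1. No decamer was in the windows of Btg2, Psrc1, Sesn2 or Plk2, of the downstream start of Cdkn1a or of the upstream start of Sesn1. Trp53inp1 was not searched. The windows of Cdkn1a, Ccng1, Mdm2 and Gadd45a, chosen among the genes with a decamer, are printed here with each decamer in capitals. Psrc1, without a decamer, rose at 6 h by 2.02 at 8 weeks and 2.12 at 1 week. Sesn1, with 1 decamer, differed at 6 h by 0.15 (not called) and 0.35. A link between decamers and the size of a rise was not tested. A match describes the sequence and does not show binding. Bases after the start or further upstream were not searched, so a window without a decamer does not show that the gene lacks one. The positions are chr17:29090729-29090978 on the plus strand for Cdkn1a, chr11:40755287-40755536 on the minus strand for Ccng1, chr10:117710759-117711008 on the minus strand for Mdm2 and chr6:67037408-67037657 on the minus strand for Gadd45a.
Cdkn1a: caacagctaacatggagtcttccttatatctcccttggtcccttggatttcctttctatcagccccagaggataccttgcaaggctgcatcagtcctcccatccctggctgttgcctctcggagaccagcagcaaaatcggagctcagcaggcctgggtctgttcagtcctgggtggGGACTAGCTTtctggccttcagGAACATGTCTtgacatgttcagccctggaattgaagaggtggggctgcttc
Ccng1: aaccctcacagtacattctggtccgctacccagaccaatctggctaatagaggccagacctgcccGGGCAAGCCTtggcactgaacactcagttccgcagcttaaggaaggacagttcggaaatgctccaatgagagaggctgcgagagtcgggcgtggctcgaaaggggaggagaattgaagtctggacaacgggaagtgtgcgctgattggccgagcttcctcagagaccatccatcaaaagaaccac
Mdm2: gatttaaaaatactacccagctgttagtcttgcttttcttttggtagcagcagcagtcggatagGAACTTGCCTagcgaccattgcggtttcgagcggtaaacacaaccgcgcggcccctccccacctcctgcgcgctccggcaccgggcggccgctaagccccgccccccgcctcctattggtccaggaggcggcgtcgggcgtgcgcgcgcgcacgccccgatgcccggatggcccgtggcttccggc
Gadd45a: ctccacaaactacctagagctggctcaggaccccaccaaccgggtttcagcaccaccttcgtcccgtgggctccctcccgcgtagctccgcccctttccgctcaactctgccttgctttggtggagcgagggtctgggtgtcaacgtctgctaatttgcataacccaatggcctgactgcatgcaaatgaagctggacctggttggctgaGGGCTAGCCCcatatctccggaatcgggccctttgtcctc

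A level is the log2 signal of the gene's brightest probe minus the 75th percentile of that array, so that a level of 0 lies at that percentile, and levels of different genes are not set against each other. A difference is a log2 difference between group means ± its standard error from limma, and a gene was called higher or lower where its p-value, adjusted by Benjamini and Hochberg over all 11884 genes, was under 0.05. The 6 h and 24 h comparisons of an age share the same 3 control arrays.

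At 6 h most of these genes were higher than in controls at both ages. In 8-week mice 8 of the 10 were called higher and none lower, against 23.4% of all tested genes called higher and 22.4% called lower. In 1-week mice all 10 were called higher, against 25.4% of all tested genes higher and 26% lower. The median difference of the 10 genes was 1.02 at 8 weeks and 1.26 at 1 week, where the median of all tested genes was 0.016 and 0.0056. At 24 h, 6 were called higher and 2 lower in 8-week mice, against 37.3% and 20% of all tested genes. In 1-week mice 8 were called higher and none lower, against 17.9% and 17.8%. The median difference at 24 h was 0.51 at 8 weeks and 0.78 at 1 week, with the median of all tested genes at 0.11 and -0.016.

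**Figure D1:**
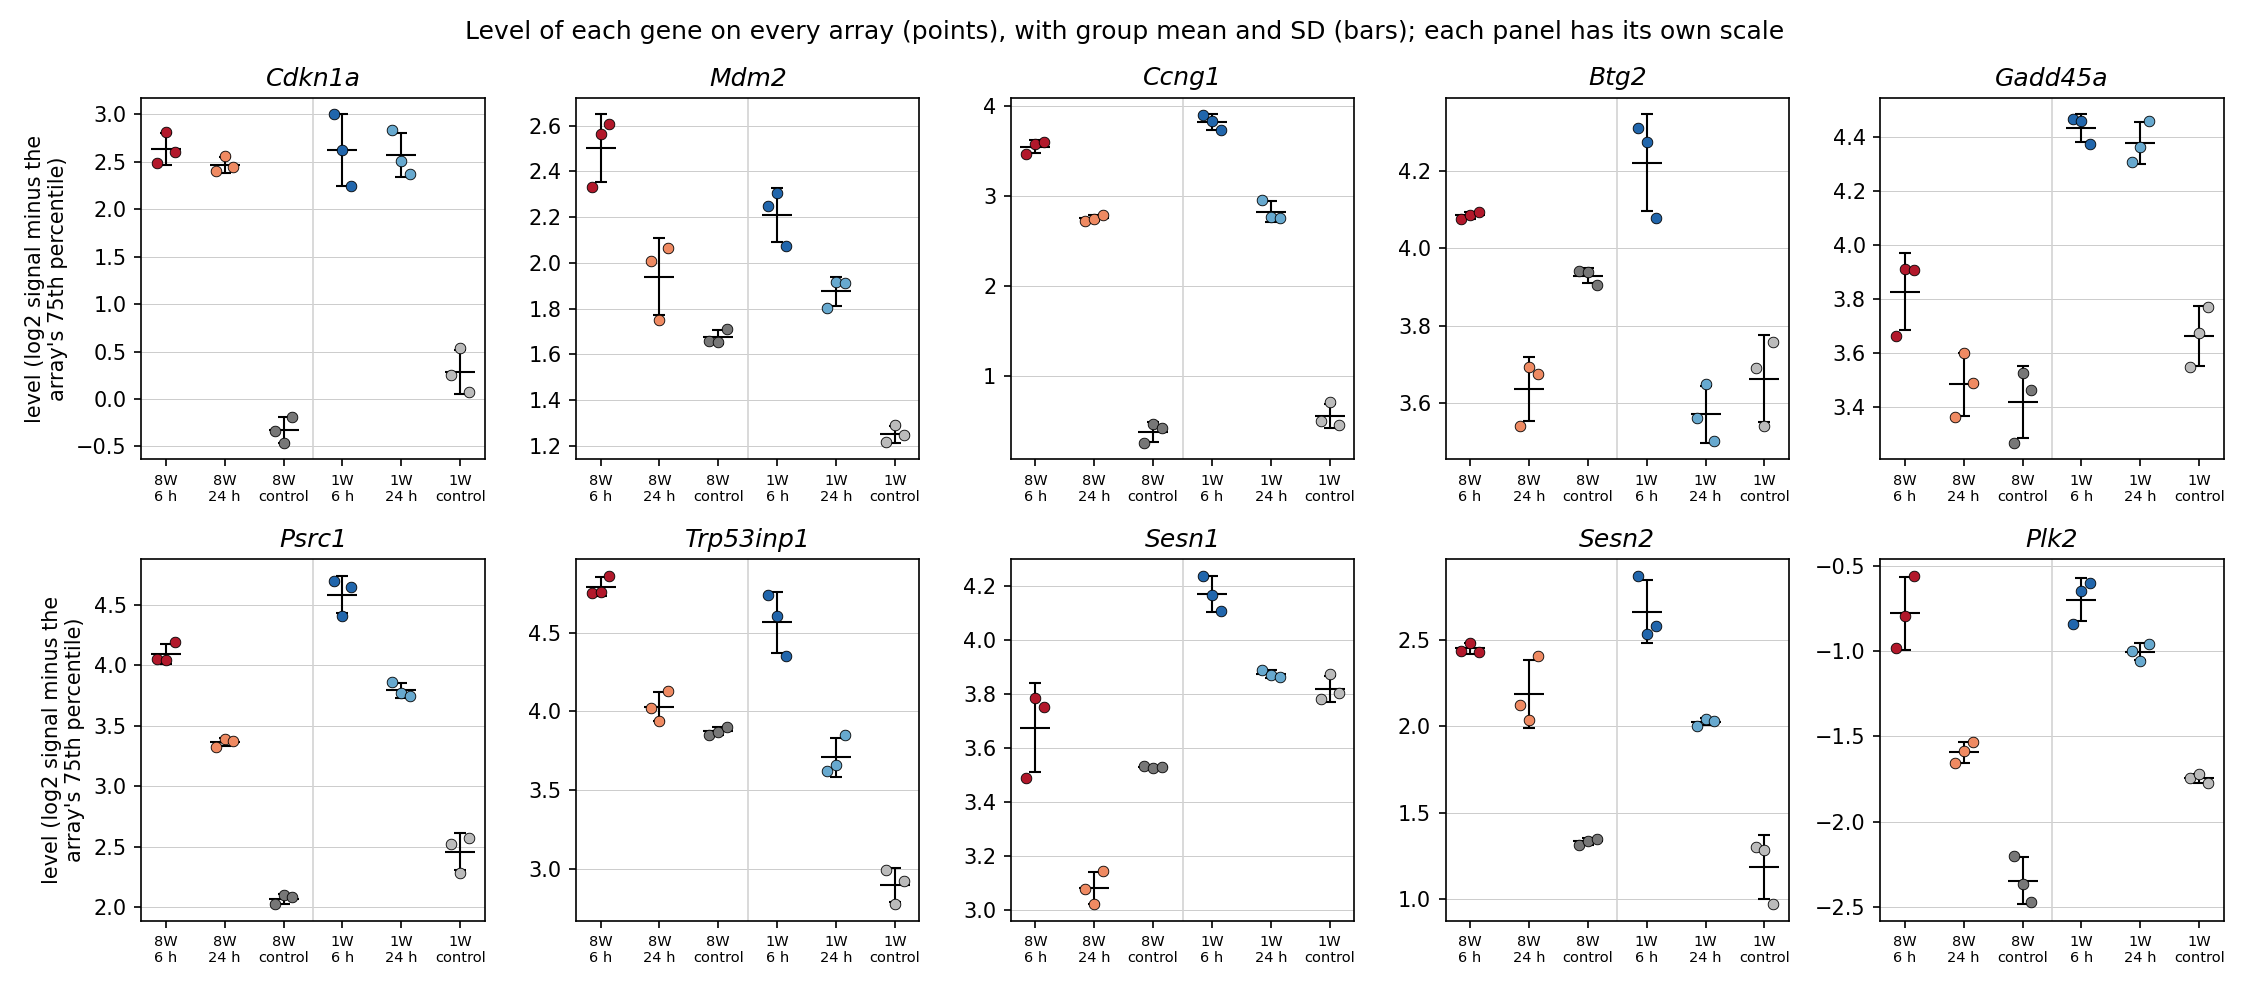
Level of each gene (y axis, log2 signal minus the array's 75th percentile, own scale per panel) on every array (points), with the group mean and SD (bars), for 8-week and 1-week mice at 6 h, 24 h and unirradiated (x axis). Cdkn1a stayed near 2.5 in all 4 irradiated groups, Ccng1 and Psrc1 peaked at 6 h at both ages, and Sesn1 was lowest in 8-week marrow at 24 h.

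Cdkn1a (chr17:29090979-29100722, build GRCm38.p6, as for the other genes) encodes p21, the inhibitor of cyclin-dependent kinases through which p53 halts cells before DNA synthesis. In 8-week mice its level was 2.49, 2.82 and 2.60 at 6 h and 2.40, 2.56 and 2.44 at 24 h, against -0.33, -0.46 and -0.19 in controls. In 1-week mice it was 3.0, 2.62 and 2.24 at 6 h and 2.83, 2.51 and 2.37 at 24 h, against 0.26, 0.53 and 0.07 in controls. Every irradiated array lay above every control array of either age, and the 4 irradiated groups overlapped each other. The rise was 2.96 ± 0.16 at 6 h (7.79-fold, adjusted p = 1.02e-09) and 2.80 ± 0.16 at 24 h (6.95-fold, adjusted p = 7.99e-10) in 8-week mice. It was 2.33 ± 0.16 at 6 h (5.04-fold, adjusted p = 1.82e-08) and 2.29 ± 0.16 at 24 h (4.87-fold, adjusted p = 2.33e-08) in 1-week mice. The array carries 8 to 10 usable spots of this probe, whose log2 signals had an SD of 0.024 to 0.089 within an array. The SD between the arrays of a group ran from 0.084 in 8-week mice at 24 h, within that range, to 0.38 in 1-week mice at 6 h.

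Psrc1 (chr3:108383804-108388231) encodes a microtubule-associated protein of the mitotic spindle. In 8-week mice its level was 4.05, 4.04 and 4.19 at 6 h and 3.33, 3.39 and 3.38 at 24 h, against 2.03, 2.10 and 2.08 in controls. In 1-week mice it was 4.70, 4.41 and 4.65 at 6 h and 3.86, 3.77 and 3.74 at 24 h, against 2.52, 2.29 and 2.58 in controls. All 6 groups were separate from their neighbours in the order of levels, with 1-week marrow above 8-week marrow in each condition. Psrc1 rose by 2.02 ± 0.079 at 6 h and 1.30 ± 0.079 at 24 h at 8 weeks (adjusted p = 1.44e-11 and 1.46e-09), and by 2.12 ± 0.079 and 1.33 ± 0.079 at 1 week (adjusted p = 9.50e-12 and 3.20e-09).

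Plk2 (chr13:110395044-110400844), a polo-like kinase that acts in centriole duplication, was higher in every irradiated group than in controls. In 8-week mice its level was -0.98, -0.80 and -0.56 at 6 h and -1.66, -1.59 and -1.53 at 24 h, against -2.20, -2.36 and -2.47 in controls. In 1-week mice it was -0.84, -0.65 and -0.60 at 6 h and -1.0, -1.06 and -0.96 at 24 h, against -1.74, -1.72 and -1.77 in controls. The irradiated groups did not overlap their controls at either age. The 8-week rise was 1.57 ± 0.10 at 6 h (2.96-fold, adjusted p = 9.32e-09) and 0.75 ± 0.10 at 24 h (1.68-fold, adjusted p = 1.21e-05). The 1-week rise was 1.05 ± 0.10 at 6 h (2.07-fold, adjusted p = 5.44e-07) and 0.74 ± 0.10 at 24 h (1.67-fold, adjusted p = 3.35e-05).

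Gadd45a (chr6:67035096-67037407) encodes a small stress-induced protein that binds p21 and PCNA. Its 8-week levels were 3.66, 3.91 and 3.91 at 6 h and 3.36, 3.60 and 3.49 at 24 h, against 3.27, 3.52 and 3.46 in controls. Its 1-week levels were 4.46, 4.46 and 4.37 at 6 h and 4.31, 4.36 and 4.46 at 24 h, against 3.55, 3.67 and 3.77 in controls. At 1 week both irradiated groups lay above every control, while at 8 weeks the 24 h arrays overlapped the controls. The differences were 0.41 ± 0.085 at 6 h (adjusted p = 0.00109) and 0.07 ± 0.085 at 24 h (not called, adjusted p = 0.525, and below 0 at -0.04 with quantile normalization) at 8 weeks. They were 0.77 ± 0.085 and 0.71 ± 0.085 at 1 week (adjusted p = 2e-06 and 7.19e-06).

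Btg2 (chr1:134074865-134079155) encodes an antiproliferative adaptor of mRNA deadenylation. Its levels at 8 weeks were 4.07, 4.09 and 4.09 at 6 h and 3.54, 3.69 and 3.67 at 24 h, against 3.94, 3.94 and 3.91 in controls. At 1 week they were 4.31, 4.27 and 4.08 at 6 h and 3.56, 3.65 and 3.50 at 24 h, against 3.69, 3.54 and 3.76 in controls. The 6 h arrays were the highest at both ages without overlapping their controls. The 8-week 24 h arrays were all below their controls. Btg2 rose by 0.56 ± 0.068 in 1-week mice at 6 h (adjusted p = 4.96e-06) and was lower by a difference of -0.29 ± 0.068 in 8-week mice at 24 h (adjusted p = 0.00155). The difference was 0.16 ± 0.068 in 8-week mice at 6 h (adjusted p = 0.0703) and -0.09 ± 0.068 in 1-week mice at 24 h (adjusted p = 0.317), neither called. The call in 8-week mice at 24 h was lost when the mean of the 3 Btg2 probes was used (-0.17, adjusted p = 0.142), and the 8-week 6 h difference was called without 1-week 6 h replicate 3 (0.16, adjusted p = 0.0429). It was also called with quantile normalization (0.15, adjusted p = 0.0481), with the percentile over detected probes (0.16, adjusted p = 0.0398) and with normexp (0.22, adjusted p = 0.0222).

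Mdm2 (chr10:117688875-117710758) encodes the ubiquitin ligase that degrades p53 and is itself a p53 target, the classic negative feedback loop. In 8-week mice its level was 2.33, 2.57 and 2.61 at 6 h and 2.01, 1.75 and 2.06 at 24 h, against 1.66, 1.65 and 1.71 in controls. In 1-week mice it was 2.25, 2.30 and 2.07 at 6 h and 1.80, 1.91 and 1.91 at 24 h, against 1.21, 1.29 and 1.25 in controls. No irradiated array overlapped the controls of its age, although the nearest 8-week 24 h array was only slightly above them. Mdm2 rose by 0.83 ± 0.085 at 6 h (1.77-fold, adjusted p = 1.76e-06) and 0.27 ± 0.085 at 24 h (1.20-fold, adjusted p = 0.0138) at 8 weeks. It rose by 0.96 ± 0.085 (1.94-fold, adjusted p = 2.14e-07) and 0.63 ± 0.085 (1.54-fold, adjusted p = 2.92e-05) at 1 week. The 8-week 24 h call was lost without 24 h replicate 1 (0.23, adjusted p = 0.0567), without 24 h replicate 3 (0.20, adjusted p = 0.0759) and with the normexp background correction (0.16, adjusted p = 0.201).

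Ccng1 (chr11:40748552-40755309) encodes cyclin G1, which brings a phosphatase to Mdm2 and so acts in the same loop. In 8-week mice its level was 3.47, 3.58 and 3.60 at 6 h and 2.72, 2.74 and 2.79 at 24 h, against 0.26, 0.46 and 0.42 in controls. In 1-week mice it was 3.90, 3.84 and 3.73 at 6 h and 2.96, 2.77 and 2.76 at 24 h, against 0.50, 0.71 and 0.45 in controls. The levels fell into 3 tiers, 6 h, 24 h and control, that did not overlap. Ccng1 rose by 3.17 ± 0.078 at 6 h (9.0-fold, adjusted p = 2.40e-14) and 2.37 ± 0.078 at 24 h (5.18-fold, adjusted p = 1.59e-12) at 8 weeks. It rose by 3.27 ± 0.078 (9.64-fold, adjusted p = 1.10e-14) and 2.27 ± 0.078 (4.84-fold, adjusted p = 2.94e-12) at 1 week, the largest rises among the 10 genes at 6 h at both ages. A second, dimmer Ccng1 probe gave 2.92 and 2.03 at 8 weeks and 2.74 and 1.95 at 1 week.

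**Figure D2:**
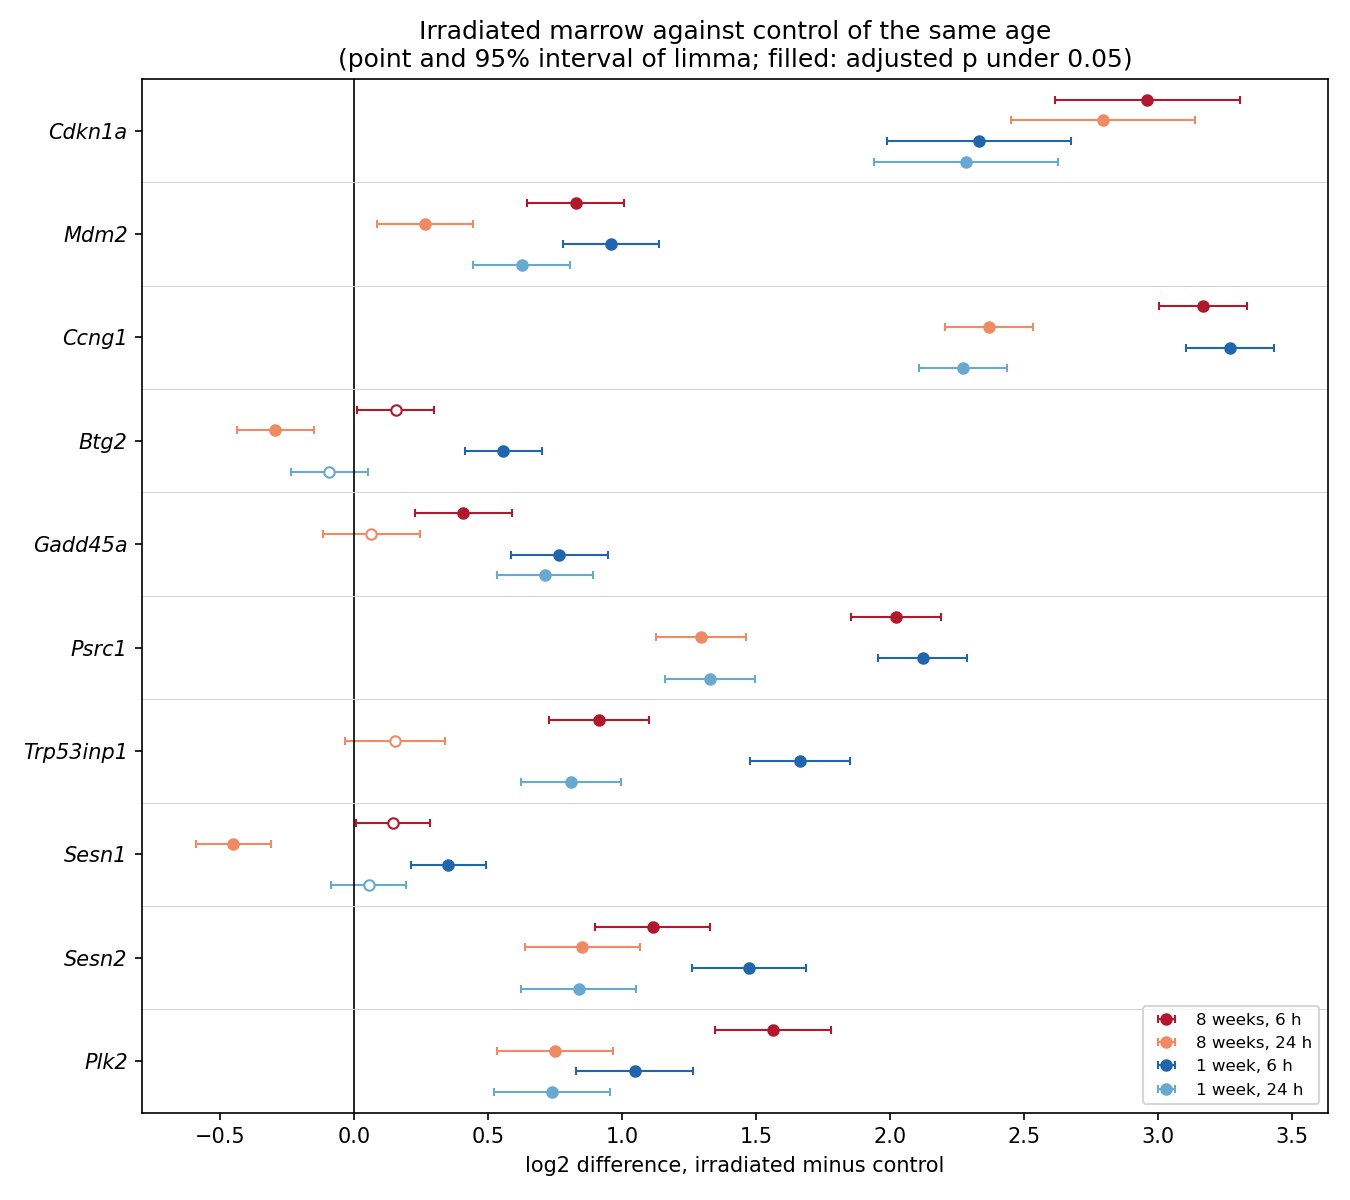
Log2 difference between irradiated and control marrow of the same age (x axis) for each gene (rows), with 95% intervals, and filled points where the adjusted p was under 0.05. Cdkn1a, Ccng1 and Psrc1 lay above 1 in all 4 comparisons. Btg2 and Sesn1 were called below 0 in 8-week marrow at 24 h, and Btg2 was at -0.09, not called, in 1-week marrow at 24 h.

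Trp53inp1 (chr4:11156441-11174379) encodes a nuclear cofactor of p53 that also acts in autophagy. Its levels at 8 weeks were 4.75, 4.76 and 4.86 at 6 h and 4.02, 3.94 and 4.13 at 24 h, against 3.85, 3.87 and 3.90 in controls. At 1 week they were 4.74, 4.61 and 4.35 at 6 h and 3.62, 3.66 and 3.85 at 24 h, against 3.0, 2.78 and 2.92 in controls. The 6 groups did not overlap their neighbours in the order of levels, and the 8-week controls lay above the 1-week mice at 24 h. Trp53inp1 rose by 0.92 ± 0.088 at 8 weeks (1.89-fold, adjusted p = 8.03e-07) and by 1.67 ± 0.088 at 1 week (3.17-fold, adjusted p = 7.30e-10) at 6 h. At 24 h the difference was 0.15 ± 0.088 at 8 weeks (adjusted p = 0.143, not called), and the gene rose by 0.81 ± 0.088 at 1 week (adjusted p = 2.63e-06).

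Sesn2 (chr4:132492804-132510456), a sestrin that restrains mTORC1 when leucine is scarce and is also a target of the stress factor ATF4, was higher in every irradiated group. In 8-week mice its level was 2.44, 2.48 and 2.43 at 6 h and 2.12, 2.03 and 2.41 at 24 h, against 1.31, 1.34 and 1.35 in controls. In 1-week mice it was 2.87, 2.53 and 2.58 at 6 h and 2.00, 2.04 and 2.03 at 24 h, against 1.30, 1.28 and 0.97 in controls. No irradiated array overlapped a control array. Sesn2 rose by 1.12 ± 0.10 and 0.85 ± 0.10 at 8 weeks at 6 h and 24 h (adjusted p = 4.37e-07 and 2.83e-06), and by 1.48 ± 0.10 and 0.84 ± 0.10 at 1 week (adjusted p = 1.49e-08 and 8.08e-06). Of 11 ATF4 targets tested beside it, 4 were called higher and 2 lower at 6 h at 8 weeks (23.4% and 22.4% of all tested genes), and 5 higher and 2 lower at 1 week (25.4% and 26%). At 24 h, 7 were higher and none lower at 8 weeks (37.3% and 20% of all tested genes), and 2 higher and 1 lower at 1 week (17.9% and 17.8%).

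Sesn1 (chr10:41810574-41908436), the other sestrin, was called higher only in 1-week mice at 6 h and lower only in 8-week mice at 24 h. At 8 weeks its levels were 3.49, 3.79 and 3.75 at 6 h and 3.08, 3.02 and 3.14 at 24 h, against 3.53, 3.53 and 3.53 in controls. At 1 week they were 4.24, 4.17 and 4.11 at 6 h and 3.89, 3.87 and 3.86 at 24 h, against 3.78, 3.87 and 3.80 in controls. Only the 1-week 6 h group lay wholly above its controls, and only the 8-week 24 h group lay wholly below. The 1-week difference was 0.35 ± 0.066 at 6 h (adjusted p = 0.000293) and 0.06 ± 0.066 at 24 h (adjusted p = 0.554, not called). The 8-week difference was 0.15 ± 0.066 at 6 h (adjusted p = 0.0795, not called) and -0.45 ± 0.066 at 24 h (1.37-fold lower, adjusted p = 2.49e-05). Without 8-week 6 h replicate 1 the 6 h difference was 0.24 and called (adjusted p = 0.00208). Both dimmer Sesn1 probes gave a larger drop in 8-week mice at 24 h, with differences of -0.56 and -0.79.

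The genes were then compared between the times. In 8-week mice 9 of the 10 genes were called lower at 24 h than at 6 h and none higher, against 16.6% and 32.2% of all tested genes. In 1-week mice 8 were called lower and none higher, against 17.9% and 17.7%. Cdkn1a was not called at either age, with differences of -0.17 ± 0.16 at 8 weeks (95% interval -0.51 to 0.18, adjusted p = 0.427) and -0.05 ± 0.16 at 1 week (95% interval -0.39 to 0.30, adjusted p = 0.849). Gadd45a was lower at 24 h by a difference of -0.34 ± 0.085 at 8 weeks (adjusted p = 0.00311) and was not called at 1 week (-0.05 ± 0.085, adjusted p = 0.656). The largest drops at 8 weeks were Plk2 with -0.81 ± 0.10, Ccng1 with -0.80 ± 0.078, Trp53inp1 with -0.76 ± 0.088 and Psrc1 with -0.73 ± 0.079. At 1 week they were Ccng1 with -0.99 ± 0.078, Trp53inp1 with -0.86 ± 0.088, Psrc1 with -0.79 ± 0.079 and Btg2 with -0.65 ± 0.068. Mdm2 was lower at 24 h by -0.56 ± 0.085 at 8 weeks and -0.33 ± 0.085 at 1 week, and the 1-week call was lost with normexp (-0.27, adjusted p = 0.0610). Whether the drop differed between ages was not tested. Sesn2 at 8 weeks was near the threshold (-0.26 ± 0.10, adjusted p = 0.0407) and was not called without any 1 of the 3 6 h arrays or without 24 h replicate 1 or 2 (-0.27 to -0.19). It was also not called with no filter on dim probes, no intensity trend, a replicate block or the deposited log2 values (-0.26, adjusted p = 0.0521 to 0.0597). Plk2 at 1 week (-0.31 ± 0.10, adjusted p = 0.0276) was not called without 6 h replicate 2 or 3 or without 24 h replicate 1 or 2 (-0.31 to -0.26). The Plk2 call was also lost with normexp (-0.225, adjusted p = 0.1115).

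**Figure D3:**
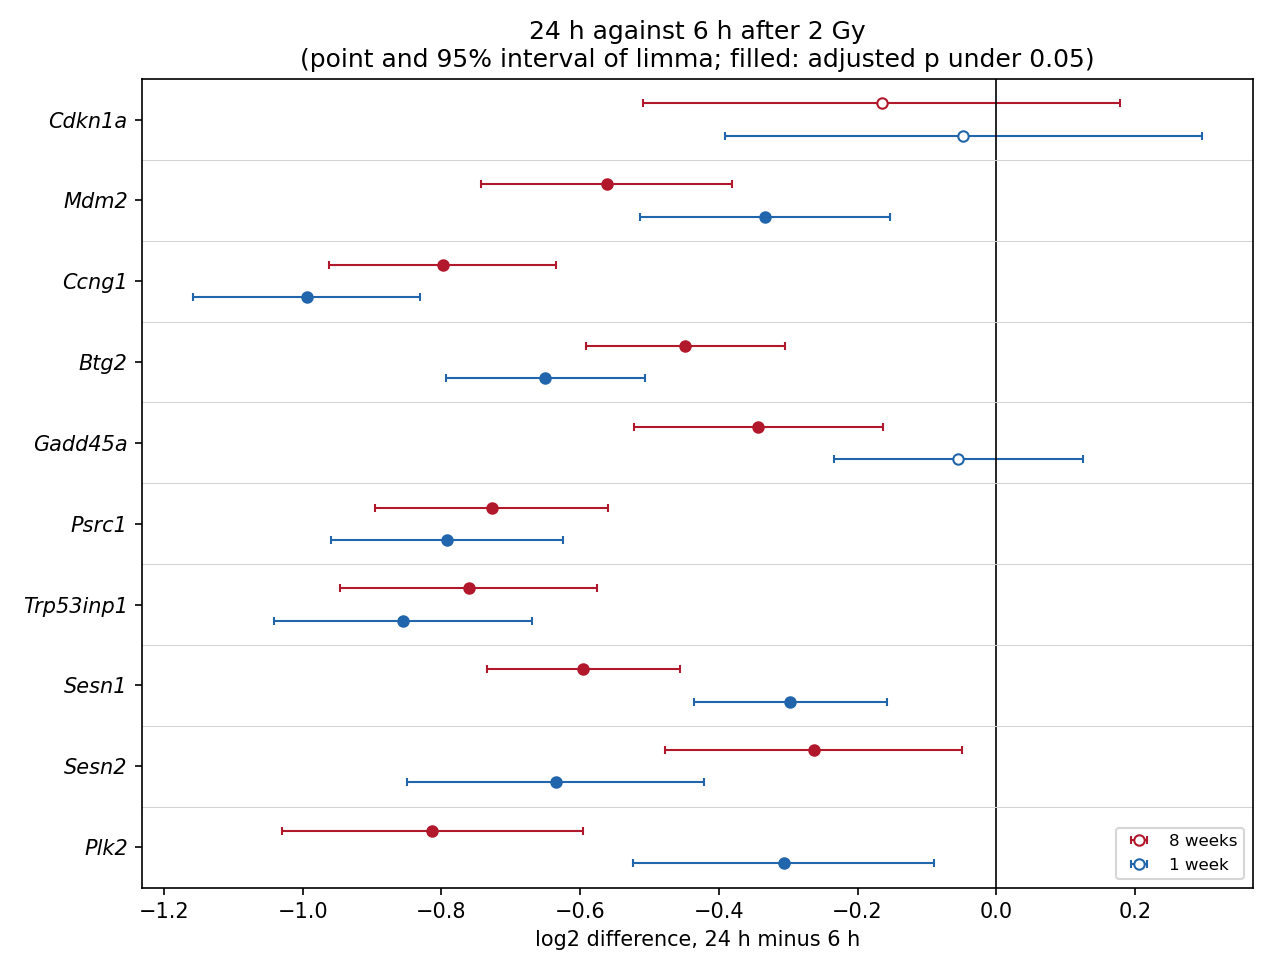
Log2 difference between 24 h and 6 h after irradiation (x axis) for each gene (rows) at 8 weeks and 1 week, with 95% intervals, and filled points where the adjusted p was under 0.05. All points lie below 0, and Cdkn1a is open at both ages with -0.17 at 8 weeks and -0.05 at 1 week.

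In unirradiated marrow 3 of the 10 genes were called higher and 5 lower in 8-week mice than in 1-week mice, against 27.5% and 37.2% of all tested genes. Trp53inp1 had the largest difference, 0.98 ± 0.088 higher at 8 weeks (1.97-fold, adjusted p = 7.79e-08). Mdm2 was higher by 0.42 ± 0.085 (adjusted p = 0.000362) and Btg2 by 0.27 ± 0.068 (adjusted p = 0.00255). Cdkn1a was lower at 8 weeks, with a difference of -0.61 ± 0.16 (1.53-fold lower, adjusted p = 0.00335), as was Plk2 with -0.60 ± 0.10 (adjusted p = 8.01e-05). These differences came to -0.40 for Cdkn1a with slide as a block (adjusted p = 0.0326) and to -0.37 for Plk2 with normexp (adjusted p = 0.00517), both still called. Psrc1 differed by -0.39 ± 0.079, Sesn1 by -0.29 ± 0.066 and Gadd45a by -0.25 ± 0.085 (adjusted p = 0.000404, 0.00101 and 0.0180). The Gadd45a call was lost without 1-week control replicate 3 (-0.19, adjusted p = 0.0844) or 8-week control replicate 1 (-0.17, adjusted p = 0.108). Ccng1 (-0.17 ± 0.078, adjusted p = 0.0606) and Sesn2 (0.15 ± 0.10, adjusted p = 0.211) were not called. Without 1-week control replicate 3 the Sesn2 difference was 0.041. Ccng1 was called without 1-week control replicate 3, 1-week 24 h replicate 1 or 8-week control replicate 2 (-0.22, -0.17 and -0.21), and with quantile normalization or normexp (-0.19 and -0.24). It came to -0.095 without 1-week control replicate 2, to -0.11 without 8-week control replicate 1 and to -0.036 with the mean of both probes, and the dimmer Ccng1 probe alone gave a difference of 0.10.

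The response itself was then compared between ages, as the 8-week difference minus the 1-week difference. At 6 h the response of 1 gene was called larger and of 3 called smaller at 8 weeks, against 9.95% and 8.13% of all tested genes. At 24 h no gene's response was called larger and 4 were called smaller, against 27.9% and 13.5%. Trp53inp1 responded less at 8 weeks at both times, with a difference of the responses of -0.75 ± 0.12 at 6 h (adjusted p = 0.000877) and -0.66 ± 0.12 at 24 h (adjusted p = 0.000619). Its 8-week level at 6 h was nevertheless the highest of the 6 groups, 4.79 ± 0.06 against 4.56 ± 0.20 in 1-week mice, and the controls averaged 3.88 ± 0.03 at 8 weeks and 2.90 ± 0.11 at 1 week (SD, n = 3 each).

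Gadd45a also responded less at 8 weeks, by -0.65 ± 0.12 at 24 h (adjusted p = 0.000539). Its 6 h difference of -0.36 ± 0.12 sat at the threshold (adjusted p = 0.0481) and was lost in 12 of 18 fits without 1 array (adjusted p = 0.0508 to 0.114) and with slide as a block (-0.28, adjusted p = 0.185). Those 12 arrays were 1-week control replicates 1 and 2, the 3 1-week arrays at 6 h, the 3 1-week arrays at 24 h, 8-week control replicates 2 and 3, 8-week 6 h replicate 1 and 8-week 24 h replicate 3. Sesn1 differed by -0.50 ± 0.093 at 24 h (adjusted p = 0.000509) and by -0.21 ± 0.093 at 6 h (adjusted p = 0.134, not called). Btg2 differed by -0.40 ± 0.096 at 6 h (adjusted p = 0.00969), and this call was lost with the mean of its probes (-0.35, adjusted p = 0.0909) and with normexp (-0.19, adjusted p = 0.222). Mdm2 differed by -0.36 ± 0.12 at 24 h (adjusted p = 0.0247) and was not called with slide as a block (-0.27, adjusted p = 0.166). It was also not called without 1-week control replicate 1, 1-week 24 h replicate 2 or 3, 8-week control replicate 3 or 8-week 24 h replicate 2 (-0.34 to -0.26, adjusted p = 0.0503 to 0.0718).

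Plk2 was the only one of the 10 genes with a response called larger at 8 weeks, by 0.52 ± 0.15 at 6 h (adjusted p = 0.0217). That call was lost without 1-week 6 h replicate 1 (0.45, adjusted p = 0.0616), without 8-week control replicate 3 (0.45, adjusted p = 0.0583) and with normexp (0.31, adjusted p = 0.154). The Cdkn1a response differed between ages by 0.63 ± 0.23 at 6 h (95% interval 0.14 to 1.12, adjusted p = 0.0682) and 0.51 ± 0.23 at 24 h (95% interval 0.02 to 0.998, adjusted p = 0.0855), neither called. The 6 h value was called without 1-week control replicate 3 (0.74) or 1-week 6 h replicate 1 (0.82), and with quantile normalization (0.67, adjusted p = 0.0468). The 24 h value was called without 1-week control replicate 3, 1-week 6 h replicate 1 or 3 or 1-week 24 h replicate 1 (0.51 to 0.64). Over the other settings, with all arrays kept, the values ran from 0.24 to 0.67 at 6 h and from 0.24 to 0.52 at 24 h. For Ccng1 the 95% interval of the difference ran from -0.33 to 0.13 at 6 h and from -0.13 to 0.33 at 24 h, and for Psrc1 from -0.34 to 0.14 and from -0.27 to 0.20, none of them called.

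**Figure D4:**
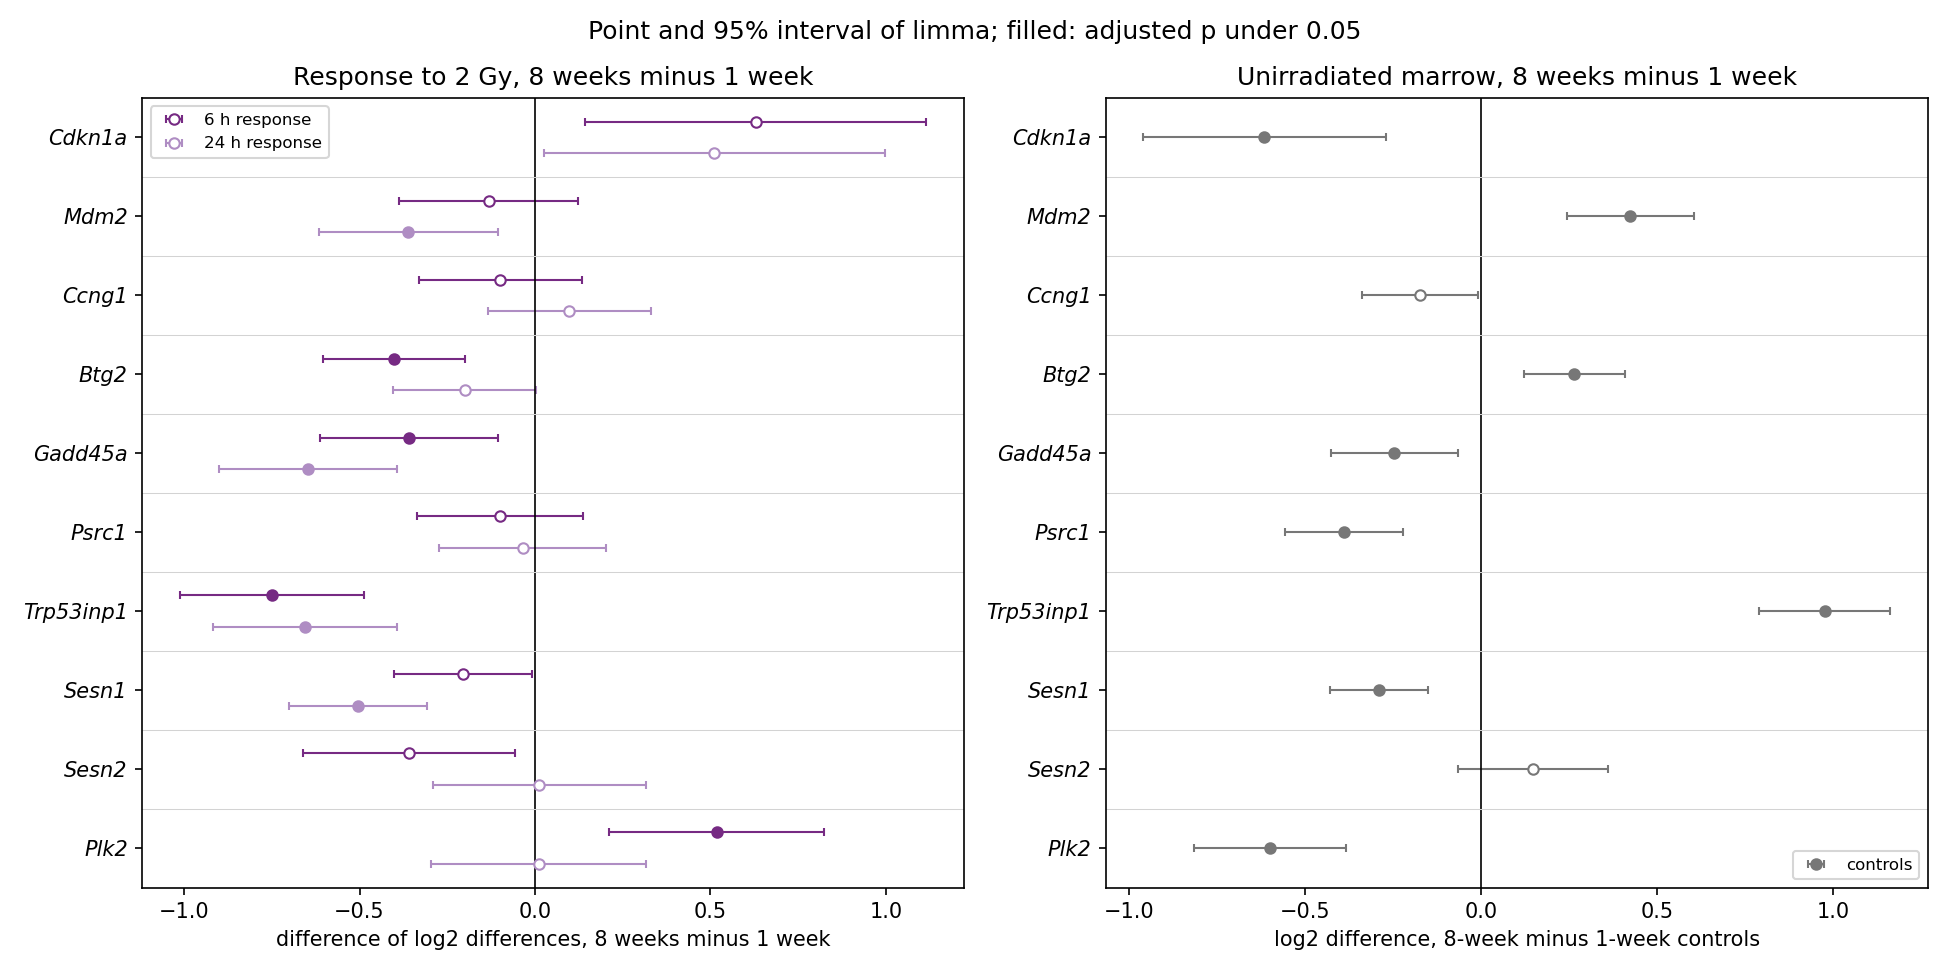
Left, the 8-week minus the 1-week response to irradiation at 6 h and 24 h, and right, the 8-week minus the 1-week level in unirradiated marrow (x axes, log2), for each gene (rows) with 95% intervals and filled points where the adjusted p was under 0.05. Trp53inp1 has the largest positive difference between controls (0.98) and the most negative differences of the responses (-0.75 and -0.66).

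Relatives of these genes were read beside them. Of 14 family relatives tested, 5 were called higher and 2 lower at 6 h in 8-week mice, where 23.4% of all tested genes were called higher and 22.4% lower. In 1-week mice 8 were higher and 2 lower, where the shares were 25.4% and 26%. Sesn3, the third sestrin and a target of FoxO factors, fell at 6 h by 0.63 at 8 weeks and by 0.70 at 1 week. Ccng2, the other cyclin G, was lower at 8 weeks (-0.30, adjusted p = 0.0268) and not called at 1 week (0.22, adjusted p = 0.0913). Cdkn1b, which encodes p27, was higher by 0.57 at 1 week and not called at 8 weeks (0.17, adjusted p = 0.0547). Plk3 rose by 0.83 and 0.81, Trp53inp2 by 0.68 and 0.68 and Tob1 by 0.53 and 0.86 at 8 weeks and 1 week. Gadd45b rose at 8 weeks (0.47) and was not called at 1 week (-0.07), while Gadd45g rose at both (0.29 and 0.18).

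Among 9 regulators upstream of the targets, 2 were called higher and 1 lower at 6 h in 8-week mice, where 23.4% of all tested genes were called higher and 22.4% lower. In 1-week mice 3 were higher and 2 lower, where the shares were 25.4% and 26%. Mdm4, the partner of Mdm2 in restraining p53, rose by 0.64 at 8 weeks and 0.87 at 1 week. Trp53 itself was not called at 6 h, with -0.04 at 8 weeks (adjusted p = 0.801) and 0.23 at 1 week (adjusted p = 0.0643). Against the same shares of all tested genes, 20 of 24 other p53 targets were called higher and 2 lower at 8 weeks, and 19 higher and 1 lower at 1 week. Phlda3, an inhibitor of Akt, rose by 3.89 at 8 weeks and 3.26 at 1 week, and Zmat3, an RNA-binding protein, by 3.56 and 3.42.

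Cell-cycle genes were read at the same times, in a G1/S and E2F list and a G2/M list known to be repressed through p21. Of all tested genes, 23.4% were called higher and 22.4% lower at 6 h in 8-week mice and 25.4% and 26% in 1-week mice, and at 24 h the shares were 37.3% and 20% in 8-week mice and 17.9% and 17.8% in 1-week mice. Of 17 G1/S and E2F genes, 13 were called lower and 1 higher at 6 h in 8-week mice, and 5 lower and none higher in 1-week mice. E2f1 fell by 0.69 and Pcna by 0.67 in 8-week mice. At 24 h, 5 of the 17 were lower and 2 higher in 8-week mice, and 3 lower and 2 higher in 1-week mice. Set against 6 h, 11 of the 17 were higher at 24 h and none lower in 8-week mice (32.2% and 16.6% of all tested genes), and 2 higher and 1 lower in 1-week mice (17.7% and 17.9%). Of 16 G2/M genes, 1 was called higher and 1 lower at 6 h in 8-week mice, and 13 higher and none lower in 1-week mice. At 24 h, 10 of the G2/M genes were lower and none higher in 8-week mice, and 2 lower and none higher in 1-week mice. Between 6 h and 24 h, 10 of the 16 were called lower and none higher in 8-week mice (16.6% and 32.2% of all tested genes). In 1-week mice 14 were called lower and none higher at 24 h than at 6 h (17.9% and 17.7%). Of 14 immediate early genes, whose fast induction by growth signals Btg2 and Plk2 are also known to share, 7 were called higher and none lower at 6 h at each age. At 24 h, 9 were higher and none lower in 8-week mice, and 7 higher and 1 lower in 1-week mice.

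Among the 11874 tested genes other than these 10, the gene whose level over the 18 arrays was most like that of Cdkn1a was Phlda3 (Pearson r = 0.980), and Phlda3 also led for Ccng1 (r = 0.985). Slc19a2 was most like Psrc1 (r = 0.992), Bbc3 most like Sesn2 (r = 0.963), Hbp1 most like Mdm2 (r = 0.953), Susd6 most like Trp53inp1 (r = 0.963) and Dnah2 most like Plk2 (r = 0.966). Gadd45a was most like Ybx3 (r = 0.974) and Btg2 most like Tmco6 (r = 0.940). For Sesn1 the leading genes were Sowaha (r = 0.994), Tmod1 (r = 0.990) and Sox6 (r = 0.989), of which Tmod1 and Sox6 are known for roles in red-cell development. Within the 10 genes, Ccng1 was closer to Sesn2 (r = 0.967) than Bbc3 was. Between the 10 genes r ran from 0.06 for Trp53inp1 with Sesn1 to 0.972 for Ccng1 with Psrc1. The 18 arrays fall into 6 groups, so these values describe shared group patterns.

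Marker genes of marrow cell types moved in the same comparisons. Of all tested genes, 23.4% were called higher and 22.4% lower at 6 h in 8-week mice, and 25.4% and 26% in 1-week mice. At 24 h the shares were 37.3% and 20% in 8-week mice, and 17.9% and 17.8% in 1-week mice. Of 9 erythroid markers, 7 were called higher and none lower in 8-week mice at 6 h (median difference 0.39), and 8 higher and none lower in 1-week mice at 6 h (median 0.65), beside Sesn1 differences of 0.15 and 0.35. At 24 h, 1 was called higher and 6 lower in 8-week mice, with a median difference of -0.365 beside the Sesn1 difference of -0.45. In 1-week mice at 24 h, 6 were called higher and none lower, beside a Sesn1 difference of 0.06 that was not called (adjusted p = 0.554). Of 11 B-cell precursor markers all were lower in 8-week mice at both times and 10 were lower in 1-week mice at both times, with a log2 summed level of 6.57 to 7.21 in irradiated and 8.46 to 8.58 in control 8-week arrays, and 6.49 to 7.03 and 8.31 to 8.5 at 1 week. Of 11 late neutrophil markers at least 10 were higher in each irradiated group. Of 9 stromal fibroblast markers all were higher in 8-week mice at both times, and none were higher at 6 h and 3 at 24 h in 1-week mice. Of 11 resident macrophage markers 9 were higher and none lower in 8-week mice at 6 h, and 1 higher and 8 lower in 1-week mice at 6 h. At 24 h all 11 were higher in 8-week mice, and 9 were higher and none lower in 1-week mice. The log2 summed erythroid level was 9.36 to 9.60 in 8-week mice at 24 h and 9.29 to 9.32 in 8-week controls, with Alas2, the first enzyme of heme synthesis in red cells, higher by 0.85. The part of these shifts in the results was not tested.

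Between 51.0% and 62.1% of probes were well above background on an array, and the 75th percentile of raw signal ran from 480.0 to 755.8. One array, 1-week control replicate 2, held more muscle transcript (log2 summed level 9.20, against 2.59 for the lowest 1-week control) and more cartilage transcript (5.74 against -1.18), and without it the only call on these genes lost was that of Gadd45a above (-0.36, adjusted p = 0.0709). The arrays lie on 5 slides, and 90 differences could be taken within a slide. Of these, 88 had the sign of the difference over all arrays, with a median gap of 0.08 and a largest gap of 0.41. The 2 exceptions were not called, Btg2 in 1-week mice at 24 h (0.02 within 1 slide) and Gadd45a between 24 h and 6 h in 1-week mice (0.0018 within 1 slide).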

How the data were processed

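RNA of bone marrow was hybridised to 18 Agilent 1-colour arrays. The intensity of each spot was deposited as Feature Extraction's processed signal, with version 11.5.1 given in the submitters' processing notes. A deposited table of log2 values served as an alternative. Its scaling and centring are not given in the sources used here, but it matched the recomputed values centred on each probe's median (r at least 0.999847, column medians -0.167 to 0.244). From the processed intensity, log2 values minus each array's 75th percentile over non-control probes were computed, spots of a probe were averaged, and outlier spots were left out. Probes were named through their RefSeq accession (24844 of 41174 had a symbol), and each gene was read from its brightest probe. A gene was tested where any 1 group had its probe detected over background by all 3 arrays. Of 17178 genes, 5286 were too dim and 8 had an outlier spot, which left 11884. limma 3.58.1 in R 4.3.3 fitted 1 mean per group over all 18 arrays (12 residual and 4.41 prior degrees of freedom, with an intensity trend), with Benjamini-Hochberg adjustment within each of 9 comparisons. The p-values measure the spread between these arrays, whose number limits the precision. The 10 genes and the gene lists were chosen with earlier results of these data known. Up to 4 genes per list, those with the smallest adjusted p in the comparison described, and all family relatives could be named. Deviations of arrays with the same replicate number from their group means had a median r of -0.015 over 45 pairs. Of these pairs 9 were above 0.1, and the largest r was 0.32. The replicate numbers are not stated to pair mice, so they were not treated as pairs. The method was tested on simulated data. Alternatives were other scalings, a normexp background correction, dim-probe filters, the mean of all probes, no trend, slide or replicate number as a block, the deposited log2 table, and leaving out each array.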

Additional observations from a re-analysis of the deposited data

Results flagged for a closer look

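For 6 of the genes the response to irradiation differed between 8-week and 1-week mice by the limma test of the difference itself. Of all tested genes, 9.95% had a response called larger and 8.13% smaller at 8 weeks at 6 h, and 27.9% and 13.5% at 24 h. The 8-week minus the 1-week response was -0.75 at 6 h and -0.656 at 24 h for Trp53inp1. It was -0.359 at 6 h and -0.647 at 24 h for Gadd45a, -0.402 at 6 h for Btg2, -0.504 at 24 h for Sesn1, -0.361 at 24 h for Mdm2 and 0.517 at 6 h for Plk2. The calls of Gadd45a and Plk2 at 6 h and of Mdm2 at 24 h were lost in 12, 2 and 5 of 18 fits that each left out 1 array, and those of Gadd45a, Btg2 and Plk2 at 6 h and of Mdm2 at 24 h in 6, 2, 1 and 1 of 10 other settings. The controls of Trp53inp1, Btg2 and Mdm2 were higher at 8 weeks and those of Gadd45a, Sesn1 and Plk2 lower. The part of the control level in these differences was not tested.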

How the results depend on the processing

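Over 28 alternatives per result, 2430 of 2520 values of single genes kept their direction and their side of the threshold, 50 lost the call, 19 gained one and 21 changed sign, none of them called. The cause of these changes was not tested. The normexp correction was planned on the mean spot signal and was run on the median spot signal, as chosen after seeing the data. With the mean of all probes, Btg2 in 1-week mice at 24 h was 0.035, the Ccng1 age difference at 6 h was 0.038, 1 gene was lower in 8-week mice at 24 h, and 1 gene had a smaller 8-week response at 6 h. With quantile normalization, Gadd45a in 8-week mice at 24 h was -0.043, the Sesn2 age difference at 24 h was -0.037, and 2 genes had a larger 8-week response at 6 h. With normexp, 0 genes had a larger and 1 a smaller 8-week response at 6 h, the Ccng1 age difference at 6 h was 0.060 and that of Plk2 at 24 h was -0.10. With the percentile over probes detected on all arrays, the 24 h age differences of Sesn2 and Plk2 were -0.037 and -0.039. With slide as a block, that of Sesn2 was -0.095, and 1282 genes in all were called in the 6 h age difference, against 2148. Leaving out 1 array at a time gave -0.0093 to 0.13 for Gadd45a in 8-week mice at 24 h and -0.24 to 0.14 for Cdkn1a between 24 h and 6 h at 1 week. It gave 24 h age differences of -0.093 to 0.051 for Psrc1, -0.097 to 0.12 for Sesn2 and -0.053 to 0.084 for Plk2, and 0 to 2 genes with a larger 8-week response at 6 h and 0 to 1 at 24 h. The replicate block ended 1 call, Sesn2 between 24 h and 6 h at 8 weeks (-0.26, adjusted p = 0.0521). In the check of pairing, 9 of 18 arrays were most like one of their own number. The number expected without pairing was not computed. All probes of the 10 genes were well above background on every array.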
